A study of Mus musculus with 21 samples.

Results

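Tb-DOX hearts, from mice that carried a subcutaneous 4T1 tumor and received doxorubicin (DOX), were compared with Control hearts, from mice that had neither. The comparison rested on 5 Tb-DOX and 5 Control RNA-seq libraries and on the 14028 of 56691 listed genes whose mean FPKM (fragments per kilobase of gene, scaled to library depth) over these 10 libraries was at least 0.5. The gene just inside that limit was *Gm13470* at 0.5, and the one just outside, a 5S ribosomal RNA gene, was at 0.499. DOX was injected into the peritoneum at 5 mg/kg each week for 3 weeks, and mice without DOX received normal saline. The other groups, DOX without a tumor (5 libraries) and Tb, a tumor with saline (6 libraries), entered the same fit and are given beside the result where they bear on it. The 4T1 line is a mouse mammary carcinoma line that grows in immunocompetent BALB/c hosts, and it is known for driving myeloid cell production. The strain, sex and age of the mice, and the time between the last injection and sampling, are not given in the sources used here. Y-linked markers summed to 239 to 313 CPM (counts scaled to library depth by TMM) in Control and 196 to 296 CPM in Tb-DOX hearts. The combined burden cannot be divided into drug and tumor from these 10 libraries alone.

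In the labels the source of all libraries is given as the 4T1 line, whereas the study's methods describe heart tissue. The 10 cardiomyocyte markers summed to 59216 to 73639.5 CPM in Control and 62158 to 76042 CPM in Tb-DOX libraries, and 11 epithelial and 4T1 markers to 0.299 to 1.59 and 1.94 to 3.86 CPM, so the expression was that of heart. Depth was 13521200 to 17278339 counts per library. Control-3 stood apart from the other 4 Control libraries, with 14.6% of its counts from mitochondrially encoded genes against 26.5% to 28.9% in the other Control libraries. The Tb-DOX libraries other than Tb-DOX-4 were at 22.3% to 23.7%, below every Control library except Control-3. Tb-DOX-4 had the lowest such share of its group (18.3%) and the highest neutrophil marker sum, and Tb-DOX-5 the lowest neutrophil marker sum. No source used here says that the libraries of a group came from separate mice, so p-values measure the spread between these libraries, which may in part be technical.

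Doxorubicin is an anthracycline that poisons topoisomerase II and undergoes redox cycling, and the heart is its dose-limiting organ. It also suppresses bone marrow, where red cells and neutrophils are made. Tumors of the 4T1 type secrete colony-stimulating factors that expand neutrophils and their precursors. Heart tissue holds blood, resident macrophages and fibroblasts besides myocytes, so a bulk library reads all of them at once, and fewer cells of a type cannot be told apart from less RNA per cell.

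The promoters of 3 sets of genes that moved furthest are shown, 2 genes a set, because their members shared a direction and each set has a textbook regulator. Each run holds the 250 bases before the RefSeq start site on build GRCm38.p6, 5′ to 3′ along the gene, with the motif in capitals. Both strands were searched in this window, for 27025 promoters in all. For the erythroid set (*Hbb-bs* at chr7:103827929-103828178, minus strand, and *Hba-a1* at chr11:32283422-32283671, plus strand) capitals mark GATAAG, the core that GATA1 reads.
Hbb-bs: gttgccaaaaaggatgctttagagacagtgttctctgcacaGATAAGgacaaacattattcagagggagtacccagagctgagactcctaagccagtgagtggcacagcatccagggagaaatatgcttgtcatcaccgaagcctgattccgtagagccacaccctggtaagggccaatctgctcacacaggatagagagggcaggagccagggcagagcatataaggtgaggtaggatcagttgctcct
Hba-a1: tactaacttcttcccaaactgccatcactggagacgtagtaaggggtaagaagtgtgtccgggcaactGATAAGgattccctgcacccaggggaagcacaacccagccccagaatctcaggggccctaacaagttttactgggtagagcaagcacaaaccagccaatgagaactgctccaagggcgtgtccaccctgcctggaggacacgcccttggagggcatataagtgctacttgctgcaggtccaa
For the MHC class II set (*H2-Aa* at chr17:34287824-34288073, minus strand, and *H2-Eb1* at chr17:34305617-34305866, plus strand) capitals mark CCAAT, read as ATTGG where it lies on the opposite strand, the core of the Y box that NF-Y reads.
H2-Aa: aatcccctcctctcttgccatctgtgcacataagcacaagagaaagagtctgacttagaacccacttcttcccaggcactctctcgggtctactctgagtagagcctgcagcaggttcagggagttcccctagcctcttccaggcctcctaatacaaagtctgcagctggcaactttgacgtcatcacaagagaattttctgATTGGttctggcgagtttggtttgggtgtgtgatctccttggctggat
H2-Eb1: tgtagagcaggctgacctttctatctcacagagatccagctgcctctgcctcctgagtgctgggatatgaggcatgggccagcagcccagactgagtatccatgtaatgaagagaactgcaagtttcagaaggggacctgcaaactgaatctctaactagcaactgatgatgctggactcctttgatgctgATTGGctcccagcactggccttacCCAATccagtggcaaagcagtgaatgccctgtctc
For the neutrophil set (*S100a8* at chr3:90668821-90669070, plus strand, and *Ngp* at chr9:110419558-110419807, plus strand) capitals mark TTNNGNAA, a loose form of the C/EBP site, searched on both strands.
S100a8: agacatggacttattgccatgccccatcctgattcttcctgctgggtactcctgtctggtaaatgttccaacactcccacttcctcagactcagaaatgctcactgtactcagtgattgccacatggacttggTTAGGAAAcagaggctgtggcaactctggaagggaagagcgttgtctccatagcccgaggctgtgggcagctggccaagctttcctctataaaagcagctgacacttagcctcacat
Ngp: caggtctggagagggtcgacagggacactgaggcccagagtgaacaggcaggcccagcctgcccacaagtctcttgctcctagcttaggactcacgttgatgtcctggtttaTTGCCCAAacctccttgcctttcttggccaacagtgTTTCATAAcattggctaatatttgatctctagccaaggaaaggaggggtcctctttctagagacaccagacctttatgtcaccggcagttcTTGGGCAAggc
GATAAG was present in 4 of the 5 erythroid genes tested (*Alas2* lacked it in this window) against 6.60% of all promoters. The 4 are the beta-globin copies *Hbb-bs* and *Hbb-bt* and the alpha-globin copies *Hba-a1* and *Hba-a2*, so they do not count as 4 independent promoters. CCAAT was present in both of the MHC class II genes with an entry, against 34.5% of all promoters. TTNNGNAA was present in 9 of 12 neutrophil genes (*Camp*, *Csf3r* and *Cxcr2* lacked it) against 36.9% of all promoters. These 12 were picked by hand and are not the 12 tested neutrophil markers, as *Mmp9* was left out. A match describes the letters in the window and does not show that a factor was bound.

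Compared with Control hearts, Tb-DOX hearts held high levels of neutrophil granule transcripts, and low levels of erythroid, MHC class II and collagen transcripts. Of the 14028 genes, 1928 (13.7%) had an adjusted p under 0.05, of which 976 (6.96%) rose and 952 (6.79%) fell. DEGs, which also differed by 1 or more on the log2 scale in either direction, numbered 660 (4.70%), with 449 higher (3.20%) and 211 lower (1.50%). The median log2 fold change was 2.02 over the higher DEGs and -1.40 over the lower ones, against 0.0067 over all genes tested. The 5 Tb-DOX libraries lay wholly above the 5 Control libraries for 1217 genes (8.68%) and wholly below for 1194 (8.51%). Among the DEGs this held for 401 of 449 higher and 194 of 211 lower genes. The low-value limit let 216 of the higher and 52 of the lower DEGs in only through the group in which they were high, and such genes had to differ. The number of DEGs was 543 without Tb-DOX-4 and 737 without Tb-5, the lowest and highest when single libraries were left out.

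**Figure D1:**
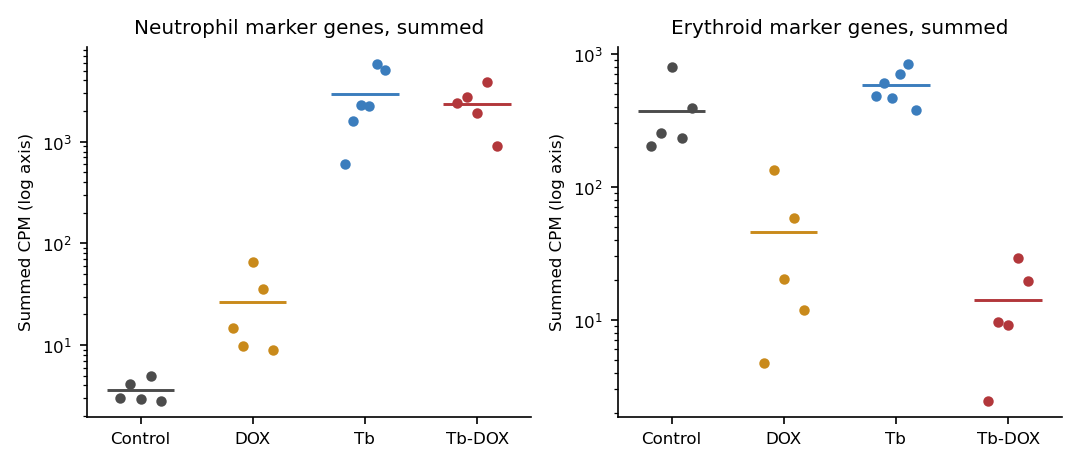
Summed TMM-scaled CPM (log axis) of 14 neutrophil markers (left) and 9 erythroid markers (right) in each library of the 4 groups, with points for libraries and bars for group means. Tb and Tb-DOX hearts lie above 600 CPM for neutrophil markers, and DOX and Tb-DOX hearts lie below the Control range for erythroid markers.

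Neutrophil transcripts were far higher in Tb-DOX hearts. The summed level of the 14 neutrophil markers was 3, 4.16, 2.95, 5.01 and 2.84 CPM in Control libraries 1 to 5, against 2376, 2767, 1928, 3819 and 912 CPM in Tb-DOX libraries 1 to 5. Every Tb-DOX library lay above every Control library, and the Tb-DOX libraries spread over a wide range with Tb-DOX-5 lowest and Tb-DOX-4 highest. Of the 14 markers, 12 passed the low-value limit and each of these had an adjusted p under 0.05, but 10 passed only through the Tb-DOX libraries and had to differ, so their number adds nothing to the levels.

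*S100a8* (chr3:90576285-90577342 on GRCm39), which encodes a calprotectin subunit stored in neutrophil cytosol, was at 0.511, 0.0694, 0.17, 0.374 and 0.194 CPM in Control and 644, 752, 551, 1105 and 245 CPM in Tb-DOX libraries. Its level was close to 0 in all Control libraries and far higher in all Tb-DOX libraries, a log2 fold change of 11.26 ± 0.96 (SE), edgeR adjusted p = 9.07e-08. Its partner *S100a9* went from 0.388 to 1.94 to 372 to 1562 CPM (log2 fold change 10.26). *Csf3r*, the receptor for granulocyte colony-stimulating factor, was present in Control hearts at 1.28, 2.01, 1.82, 1.87 and 2.2 CPM and reached 104, 112, 89.2, 124 and 63.1 CPM in Tb-DOX hearts. Since this receptor was measurable in every Control library, its log2 fold change of 5.74 ± 0.40 (SE), edgeR adjusted p = 2.10e-08 rests on measured levels in both groups. *Cxcr2*, the receptor that guides neutrophils along CXC chemokines, ranged over 0 to 0.299 and 30.4 to 91.8 CPM, and *Mmp9*, a granule gelatinase, over 0.0646 to 0.555 and 17.9 to 63.9 CPM.

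Granule and surface genes of the lineage were almost absent from Control hearts, so only counts bound their change. *Ngp*, a secondary granule protein, had 3 counts over the 5 Control libraries and 18208 over the 5 Tb-DOX libraries, a ratio of 5615 (95% interval 1921 to 27232) for counting error alone. *Ltf* (lactoferrin) had 3 and 6840 counts, and *Camp* (cathelicidin) 1 and 987. The collagenase *Mmp8* had 2 and 7464 counts, and the resistin-like *Retnlg* 1 and 9723. No count of *Cd177* or *Ly6g*, both neutrophil surface proteins, was found in any Control library, and against a floor of 3 counts over that group they were at least 1089.9-fold and at least 149-fold higher in Tb-DOX hearts. The stefins *Stfa3* and *Stfa2*, cysteine protease inhibitors of myeloid cells, had 0 and 1 counts in Control and 4513 and 6735 in Tb-DOX hearts, but near-identical copies share reads, so the share of each is uncertain.

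Acute phase genes and the STAT3 pathway, which cells switch on under interleukin 6 type cytokines, included many that rose. Of 21 tested genes of that list, 11 rose and none fell, against 6.96% and 6.79% of all genes, and the median log2 fold change was 1.34. Of the 11, 5 (among them *Il1b*, *Hp* and *Saa3*) passed the low-value limit only through the Tb-DOX libraries and had to differ. *Socs3*, the feedback inhibitor of the pathway, was at 2.94, 1.25, 2.44, 1.35 and 1.62 CPM in Control and 22.4, 19.1, 16.3, 28.1 and 12.2 CPM in Tb-DOX libraries. The groups did not overlap, and the log2 fold change was 3.34 ± 0.72 (SE), edgeR adjusted p = 0.00308. *Il6ra*, a subunit of the interleukin 6 receptor, rose by 1.61 on the log2 scale, and *Osmr*, the oncostatin M receptor that myocytes and fibroblasts carry, by 1.11. The cytokine gene *Il1b* had 0.128 to 0.673 CPM in Control and 12.8 to 20.9 CPM in Tb-DOX hearts. Transcripts of secreted acute phase proteins were high as well, with *Hp* (haptoglobin) at 19.6 to 90.1 CPM against 0.113 to 1.67 CPM in Control, and *Saa3* at 4189 counts against 3. *Lcn2* (lipocalin 2), an iron-sequestering protein of neutrophils and stressed tissue, was at 27.2, 3.54, 8.57, 4.33 and 1.23 CPM in Control and 127, 119, 83.9, 200.0 and 36.9 CPM in Tb-DOX libraries, where the highest Control value came close to the lowest Tb-DOX value. *Il1b*, *Hp* and *Lcn2* are also neutrophil transcripts, and the part of neutrophil RNA in their rise was not tested.

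Erythroid transcripts fell in the same hearts. The 9 erythroid markers in the table, of 10 listed, summed to 202, 253, 791, 232 and 392 CPM in Control and 2.46, 9.65, 9.11, 29.2 and 19.4 CPM in Tb-DOX libraries, with Control-3 the highest of its group. *Hbb-bs* (chr7:103475741-103477303 on GRCm39), the adult beta-globin gene, was at 132, 162, 495, 153 and 247 CPM in Control and 1.17, 4.55, 4.95, 17.8 and 11.2 CPM in Tb-DOX libraries. The lowest Control value was well above the highest Tb-DOX value, and the log2 fold change was -4.90 ± 0.76 (SE), edgeR adjusted p = 1.41e-04. The alpha-globin gene *Hba-a1* fell by 4.59 on the log2 scale, from 58.5 to 245 to 1.01 to 8.5 CPM. *Hbb-bt* and *Hba-a2* fell as well, although reads of globin copies that are nearly identical cannot be split with certainty. *Alas2*, the erythroid enzyme that starts haem synthesis and no globin copy, was at 5.3, 7.77, 20.7, 7.55 and 8.98 CPM and 0.224, 0.485, 0.143, 2.11 and 0.709 CPM, a log2 fold change of -3.74 ± 0.55 (SE), edgeR adjusted p = 8.45e-05. All 5 erythroid genes tested fell, against 6.79% of all genes, of which 2 passed the low-value limit only through Control. *Tfrc*, the transferrin receptor that takes up iron in erythroid and other cells, fell from 145 to 322 to 60.3 to 120.4 CPM.

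MHC class II transcripts, which antigen-presenting cells use to show peptides to helper T cells, were low in every Tb-DOX heart. *Cd74*, the invariant chain, was at 40.8, 61.1, 76.5, 61.4 and 47.6 CPM in Control and 8.67, 11.3, 17, 6.91 and 7.92 CPM in Tb-DOX libraries, with no overlap and a log2 fold change of -2.48 ± 0.34 (SE), edgeR adjusted p = 3.13e-05. The alpha chain gene *H2-Aa* (chr17:34501718-34506797 on GRCm39) was at 10.1, 18.3, 20.1, 19.7 and 13.8 CPM and 1.9, 1.88, 5.23, 3.42 and 2.3 CPM, a log2 fold change of -2.48 ± 0.34 (SE), edgeR adjusted p = 3.17e-05. *H2-Ab1* and *H2-Eb1* fell by 2.58 and 2.96 on the log2 scale, and *H2-Ea*, outside the list, by 2.98. All 4 tested genes of the list of 11 fell, against 6.79% of all genes. Of these, 1 had passed the low-value limit only through Control, and the other 7 of the list were under that limit. *B2m*, the light chain of MHC class I, was at 95.5 to 116 CPM and 84.8 to 136 CPM (log2 fold change 0.03, adjusted p = 0.935 in edgeR). Of 14 genes of MHC class I and peptide loading, 1 fell and none rose, near the 6.79% of all genes that fell (2 fell without Control-2). The 16 macrophage markers summed to 259 to 319 CPM in Control and 213 to 469.9 CPM in Tb-DOX hearts, ranges that overlap, and 12 B cell markers to 16.7 to 27 and 6.67 to 15.7 CPM, which do not. The part of B cells in the MHC class II values was not tested. *Retnla*, a marker of alternatively activated macrophages, had 89 counts in Control and 7 in Tb-DOX hearts.

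**Figure D2:**
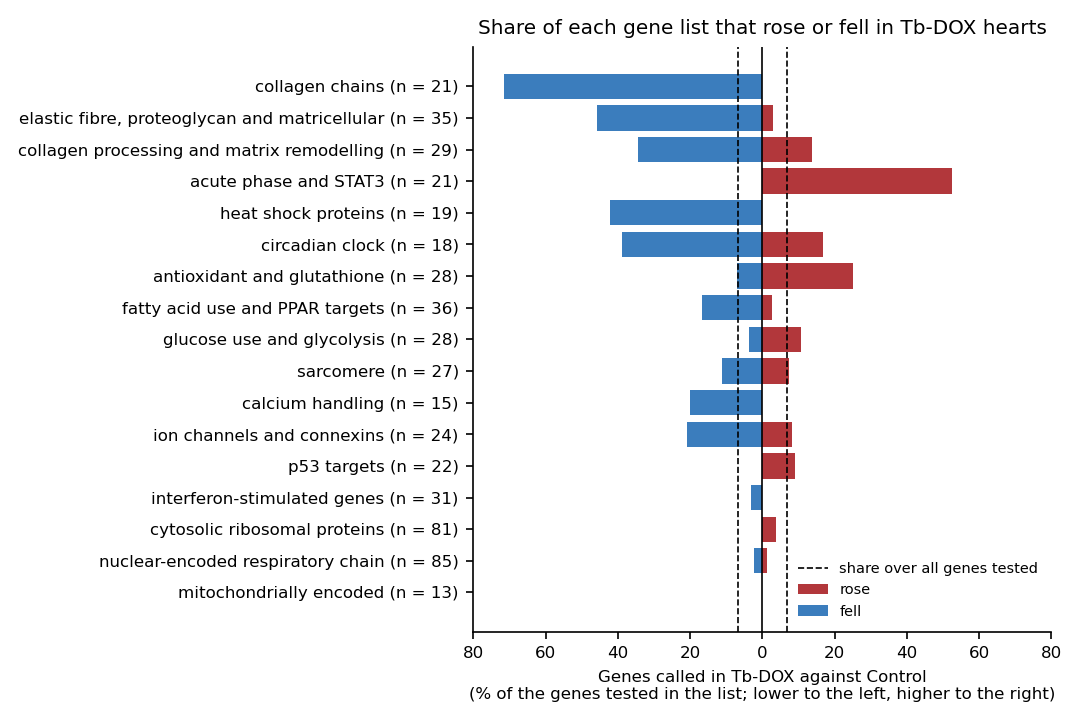
Share of the tested genes of 17 lists that rose (right, red) or fell (left, blue) in Tb-DOX against Control hearts at an adjusted p under 0.05, with the shares over all 14028 genes, 6.96% and 6.79%, as dashed lines. Among the 17 lists drawn, collagen chains reach furthest to the left with 15 of 21 genes and acute phase and STAT3 genes furthest to the right with 11 of 21. The MHC class II and aryl hydrocarbon receptor lists, with under 10 tested genes each, are not drawn.

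Genes of the extracellular matrix, which cardiac fibroblasts build and maintain, included many that fell. Of 21 collagen chains tested, 15 fell and none rose, against 6.79% and 6.96% of all genes, with a median log2 fold change of -0.97 and all 21 values below 0. Of the 15, *Col4a3* alone passed the low-value limit only through Control. *Col1a1*, a chain of the main fibrillar collagen, was at 78.2, 67.4, 47.9, 56.6 and 55.9 CPM in Control and 17.3, 17.2, 18.3, 34.9 and 25.9 CPM in Tb-DOX libraries (log2 fold change -1.43 ± 0.26 (SE), edgeR adjusted p = 8.52e-04). *Col3a1*, the fibrillar collagen of compliant tissue, was at 293, 296, 125, 199 and 207 CPM and 23.6, 22.5, 38.1, 89.5 and 49.8 CPM (log2 fold change -2.32 ± 0.46 (SE), edgeR adjusted p = 0.00159). Control-3 was the lowest of its group and Tb-DOX-4 the highest of its own in *Col3a1*, yet the groups stayed apart. *Col1a2*, *Col6a3* and *Col8a1* fell by 1.57, 1.87 and 1.71 on the log2 scale. The basement membrane chains *Col4a3* and *Col4a4* fell by 1.52 and 1.19, the latter with an adjusted p of 0.0564 without Tb-DOX-1 and 0.0638 without Tb-DOX-4 in edgeR.

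Other matrix genes moved in both directions, more of them down than up. *Sparc*, a collagen-binding matricellular protein, was at 415, 395, 329, 370.4 and 356 CPM in Control and 189.9, 139.8, 168, 231 and 132 CPM in Tb-DOX libraries, a log2 fold change of -1.12 ± 0.14 (SE), edgeR adjusted p = 1.83e-05. Its relative *Sparcl1* fell by 0.75 on the log2 scale and the keratan sulfate proteoglycan *Lum* by 1.55. *Serpinh1*, the collagen chaperone, went from 99.7, 108, 106, 144 and 115 CPM to 50.4, 38.5, 45.2, 46.8 and 49.9 CPM (log2 fold change -1.31 ± 0.19 (SE), edgeR adjusted p = 7.42e-05), and *P4ha1*, a prolyl hydroxylase that stabilizes the triple helix, fell by 1.36. *Postn* (periostin), *Dpt* (dermatopontin) and *Fstl1* fell by 1.53, 1.00 and 1.08. Over the 35 tested elastic fibre, proteoglycan and matricellular genes 16 fell (1 having passed the limit only through Control) and 1 rose, and over the 29 genes of collagen processing and remodelling 10 fell and 4 rose, against 6.79% and 6.96% of all genes. Of these 4, *Mmp8* and *Mmp9*, both also neutrophil genes, passed the low-value limit only through the Tb-DOX libraries and had to differ, and the others were *Lox* and *Mmp14*. Of 12 fibroblast markers 8 fell and none rose, against the same shares of all genes, and their sum was 2482 to 2651 CPM in Control against 1519.7 to 2076 CPM in Tb-DOX hearts, a sum that includes the abundant actin-severing *Gsn* (log2 fold change -0.70).

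Some matrix genes went the other way. *Lox*, the enzyme that cross-links collagen and elastin, was at 7.53, 6.39, 5.16, 3.74 and 4.2 CPM in Control and 17.8, 23.7, 13.6, 26.5 and 17.5 CPM in Tb-DOX libraries, with no overlap and a log2 fold change of 1.87 ± 0.51 (SE), edgeR adjusted p = 0.0173. *Thbs2*, a matricellular thrombospondin, rose by 1.10 on the log2 scale and the TGF-beta induced *Tgfbi* by 1.24. *Mmp14*, a membrane-bound collagenase, rose by 1.21 (edgeR adjusted p = 0.0214), but its adjusted p was 0.0594 without Control-4 and 0.0713 without Tb-DOX-4. The elastic fibre gene *Mfap4* was at 8.42, 12.6, 7.32, 9.42 and 8.46 CPM and 0.839, 1.58, 1.94, 2.23 and 2.07 CPM, a log2 fold change of -2.41 ± 0.40 (SE), edgeR adjusted p = 3.32e-04. *Itgb6*, the epithelial integrin subunit that activates latent TGF-beta, was at 10, 13.5, 17.5, 21.5 and 25.6 CPM and 3.35, 4.07, 2.87, 2.17 and 3.72 CPM, a log2 fold change of -2.44 ± 0.50 (SE), edgeR adjusted p = 0.00196. In both genes every Tb-DOX library lay below every Control library.

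**Figure D3:**
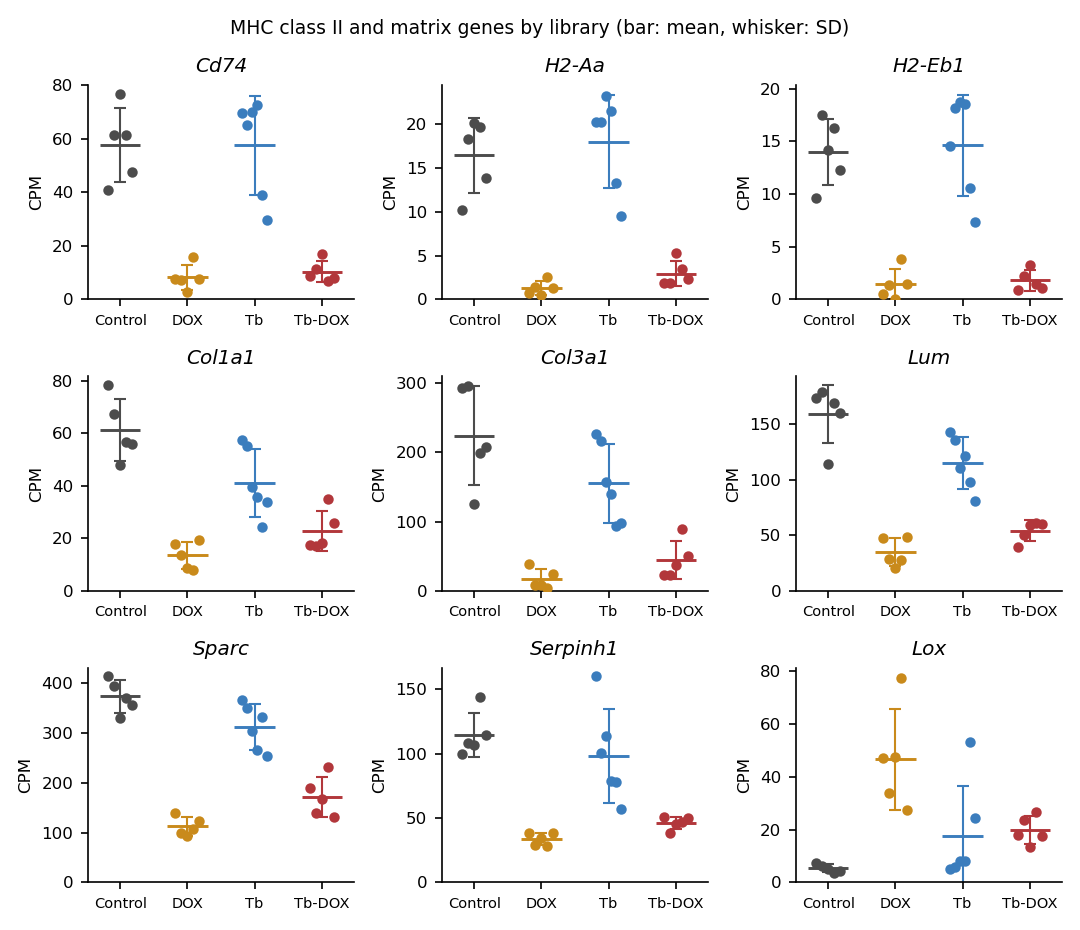
TMM-scaled CPM (linear axis from 0) of 9 genes of antigen presentation and matrix in each library of Control, DOX, Tb and Tb-DOX, with points for libraries, bars for means and whiskers for SD. *Cd74*, *H2-Aa* and *H2-Eb1* are low in DOX and Tb-DOX hearts and within or near the Control range in Tb hearts, and *Lox* is higher in Tb-DOX than in Control hearts.

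The contractile apparatus had calls in both directions. Of 27 sarcomere genes 2 rose and 3 fell, against 6.96% and 6.79% of all genes, with a median log2 fold change of 0.12. The number that rose was 4 without Control-3 and at most 5 under alternative processing. *Myh6*, the main myosin heavy chain of the adult mouse heart, was at 21334 to 25845 CPM in Control and 22317 to 28058 CPM in Tb-DOX hearts (log2 fold change 0.20 ± 0.11 (SE), edgeR adjusted p = 0.246). *Myh7*, the slow myosin of the fetal and stressed mouse heart, was at 973, 737, 1218, 752 and 683 CPM and 1528, 1726, 1456, 2845 and 3031 CPM, a log2 fold change of 1.28 ± 0.38 (SE), edgeR adjusted p = 0.0257. Its groups did not overlap, but the adjusted p was 0.0602 without Control-2, 0.0635 without Control-4, 0.0609 without Control-5, 0.0653 without Tb-DOX-4, 0.0667 without Tb-DOX-5 and 0.0502 in DESeq2. *Acta1*, the skeletal alpha-actin that is also part of the fetal program, went the opposite way, from 3202, 2355, 2964, 2257 and 2087 CPM in Control to 521, 1077, 940.0, 459.5 and 875 CPM in Tb-DOX libraries (log2 fold change -1.73 ± 0.38 (SE), edgeR adjusted p = 0.00405). The natriuretic peptide genes *Nppa* and *Nppb* had log2 fold changes of 0.98 (edgeR adjusted p = 0.113) and 0.29 (adjusted p = 0.8), neither past the threshold. *Tnnt2* (cardiac troponin T) rose by 0.74 on the log2 scale, whereas *Ttn* (titin) fell by 0.62 and the actin-binding *Xirp2* by 1.28.

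Calcium and conduction genes included a few clear decreases. *Casq1*, a calsequestrin that buffers calcium in the sarcoplasmic reticulum, was at 70.5, 64.8, 107, 67.3 and 55.8 CPM in Control and 21, 21.6, 30.8, 22.9 and 23.2 CPM in Tb-DOX libraries (log2 fold change -1.62 ± 0.29 (SE), edgeR adjusted p = 8.02e-04). The luminal calcium-binding *Hrc* fell by 0.63 on the log2 scale, while *Pln* (phospholamban), the brake on the SERCA pump, had a log2 fold change of 0.04 (edgeR adjusted p = 0.824). Of 15 calcium handling genes 3 fell and none rose, against 6.79% and 6.96% of all genes. *Kcnd2*, a channel of the transient outward potassium current, fell by 0.96. *Gja1* (connexin 43), which couples ventricular myocytes, rose by 0.52. The sodium channel subunit *Scn4b* had a log2 fold change of -0.95 (edgeR adjusted p = 0.0306), which was 0.0811 without Control-4, 0.0588 without Tb-DOX-2, 0.0621 without Tb-DOX-4 and 0.0801 without Tb-DOX-5. Of 24 ion channels and connexins 5 fell and 2 rose, against 6.79% and 6.96% of all genes, and the number that rose was near that share. The number that fell was 1 without Control-4, Tb-DOX-4 or Tb-DOX-5 and 2 without Control-2 or Control-3, both close to the share of all genes. It was 3 without Control-5, Tb-DOX-2 or Tb-DOX-3. The number that rose was 1 without Control-1 or Tb-DOX-4 and 4 without Tb-5.

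Genes of fatty acid use, the main fuel of the adult heart, included some that fell. Of 36 tested genes 6 fell and 1 rose, against 6.79% and 6.96% of all genes, with a median log2 fold change of -0.33 and 31 values below 0. The number that fell was 3, a share close to that of all genes, without Control-1, Control-2 or Tb-DOX-4, 10 without DOX-3 or Tb-5 and 12 without Tb-6, and 2 rose without DOX-5. It was 11 in DESeq2, 3 in limma on either scale and 20 with only the 10 libraries in the fit, where 3 rose. *Cpt2*, which rebuilds acyl-CoA inside mitochondria, was at 173, 177, 189, 155 and 149 CPM in Control and 75.2, 73.4, 77.7, 56 and 60 CPM in Tb-DOX libraries (log2 fold change -1.30 ± 0.25 (SE), edgeR adjusted p = 0.00103). *Fabp3*, the heart fatty acid binding protein, was at 3085, 2734, 3735, 2697 and 2375 CPM and 1591, 1489, 1561, 1479 and 1436 CPM (log2 fold change -0.95 ± 0.21 (SE), edgeR adjusted p = 0.00322). Both genes were lower in each Tb-DOX library than in any Control library, as was *Acads*, the short-chain acyl-CoA dehydrogenase (log2 fold change -0.83). *Lpl*, which releases fatty acids from circulating lipoprotein, was the gene that rose, from 5281, 4983, 6125, 4757 and 5143 CPM to 8491, 7507, 7194, 8092 and 6901 CPM (log2 fold change 0.54 ± 0.14 (SE), edgeR adjusted p = 0.0108).

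*Pdk4*, the kinase that shuts pyruvate out of the mitochondrion, was at 749.5, 539, 278, 209 and 225 CPM in Control and 159, 151, 114, 83.7 and 129.5 CPM in Tb-DOX libraries, where the Control values themselves varied widely (log2 fold change -1.65 ± 0.50 (SE), edgeR adjusted p = 0.0292). Its edgeR adjusted p was 0.0985 without Control-1, 0.0653 without Control-2, 0.0613 without Tb-DOX-3, 0.0813 without Tb-DOX-4 and 0.0532 without Tb-DOX-5. With robust moderation in edgeR it was 0.0529. In limma the adjusted p was 0.0769 on log2(FPKM + 0.1) and 0.0636 on log2(FPKM + 1). *Ucp3*, a mitochondrial carrier that follows fatty acid supply, was at 26.7, 21.9, 13.2, 12.5 and 14.9 CPM and 9.56, 4.79, 4.88, 5.19 and 5.97 CPM. The groups did not overlap, but the log2 fold change of -1.55 had an edgeR adjusted p of 0.0639. Calls among genes of the respiratory chain depended on single libraries. Of 85 nuclear-encoded genes 1 rose and 2 fell, against 6.96% and 6.79% of all genes (8 rose and none fell without Control-3, and 2 to 4 rose without DOX-3, Tb-5, Tb-6 or Tb-DOX-4), and of 13 mitochondrially encoded genes 0 passed in edgeR, DESeq2 or limma on log2(FPKM + 0.1), and 0 had an unadjusted p under 0.05 in edgeR, while 2 fell in edgeR without Control-3. Of 81 cytosolic ribosomal protein genes 3 rose, against 6.96% of all genes, a number that was 15 without Control-3, 14 without Tb-5 and 1 without any of 8 other libraries. *Sh3bgr*, a thioredoxin-like protein of striated muscle, fell by 1.21 on the log2 scale, and the creatine kinase genes *Ckm* and *Ckb* had log2 fold changes of -0.13 and -0.31 (edgeR adjusted p = 0.574 and 0.139).

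Among heat shock genes, whose products fold proteins, several fell in Tb-DOX hearts. *Hsph1*, a nucleotide exchange factor of the HSP70 machine, was at 51.9, 84.1, 78.4, 94.7 and 70 CPM in Control and 22.4, 23, 20.8, 16.1 and 27.5 CPM in Tb-DOX libraries, with no overlap and a log2 fold change of -1.79 ± 0.30 (SE), edgeR adjusted p = 3.61e-04. *Hspd1*, the mitochondrial chaperonin, was at 450.0, 452, 475, 462 and 429 CPM and 281, 279, 263, 208 and 305 CPM (log2 fold change -0.77 ± 0.17 (SE), edgeR adjusted p = 0.00325), and the HSP70 co-chaperone *Dnaja1* fell by 0.88 on the log2 scale. Of 19 heat shock genes 8 fell and none rose, against 6.79% and 6.96% of all genes, and 18 of the 19 log2 fold changes were below 0. The number that fell was 3 without Tb-DOX-4 and 5 without Control-3, Tb-DOX-1 or Tb-DOX-2, 5 with library totals or limma on either scale, and 16 with only the 10 libraries in the fit. *Hsp90ab1* was one of those lost (log2 fold change -0.45, edgeR adjusted p = 0.0191), with an adjusted p of 0.0663 without Control-3, 0.0523 without Tb-DOX-1 and 0.0559 without Tb-DOX-4.

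Clock genes moved in both directions. *Arntl* (BMAL1), the positive arm of the clock, was at 1.08, 2.08, 3.29, 0.747 and 4.65 CPM in Control and 9.56, 18.3, 7.1, 10.5 and 20.4 CPM in Tb-DOX libraries, a log2 fold change of 2.46 ± 0.64 (SE), edgeR adjusted p = 0.012. Its partner *Clock* rose by 0.68 on the log2 scale and the related *Npas2* by 1.90, although the *Npas2* libraries overlapped between the groups. *Dbp*, a direct output of BMAL1 and CLOCK, went the other way, from 54.4, 43.8, 56.9, 52.8 and 23.6 CPM to 15.6, 6.49, 13.9, 14.2 and 8.45 CPM (log2 fold change -1.98 ± 0.36 (SE), edgeR adjusted p = 7.22e-04). *Per2*, a repressor of the clock, fell by 0.68 and the output gene *Tef* by 0.82. *Per3* fell by 1.15 (edgeR adjusted p = 0.0253), with an adjusted p of 0.0504 to 0.062 when Control-3, Control-4, Tb-DOX-2, Tb-DOX-4 or Tb-DOX-5 was left out. Of 18 clock genes 3 rose and 7 fell, against 6.96% and 6.79% of all genes, although *Arntl* and *Npas2* passed the low-value limit only through the Tb-DOX libraries and had to differ, and the number that fell was 3 without Tb-DOX-5 and 4 without Tb-DOX-2 or Tb-DOX-4. Without Control-3 and Tb-DOX-5 together, *Npas2* and *Tef* missed the threshold (edgeR adjusted p = 0.0655 and 0.0621). The hour at which each heart was taken is not given in the sources used here, and its part in these values was not tested.

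**Figure D4:**
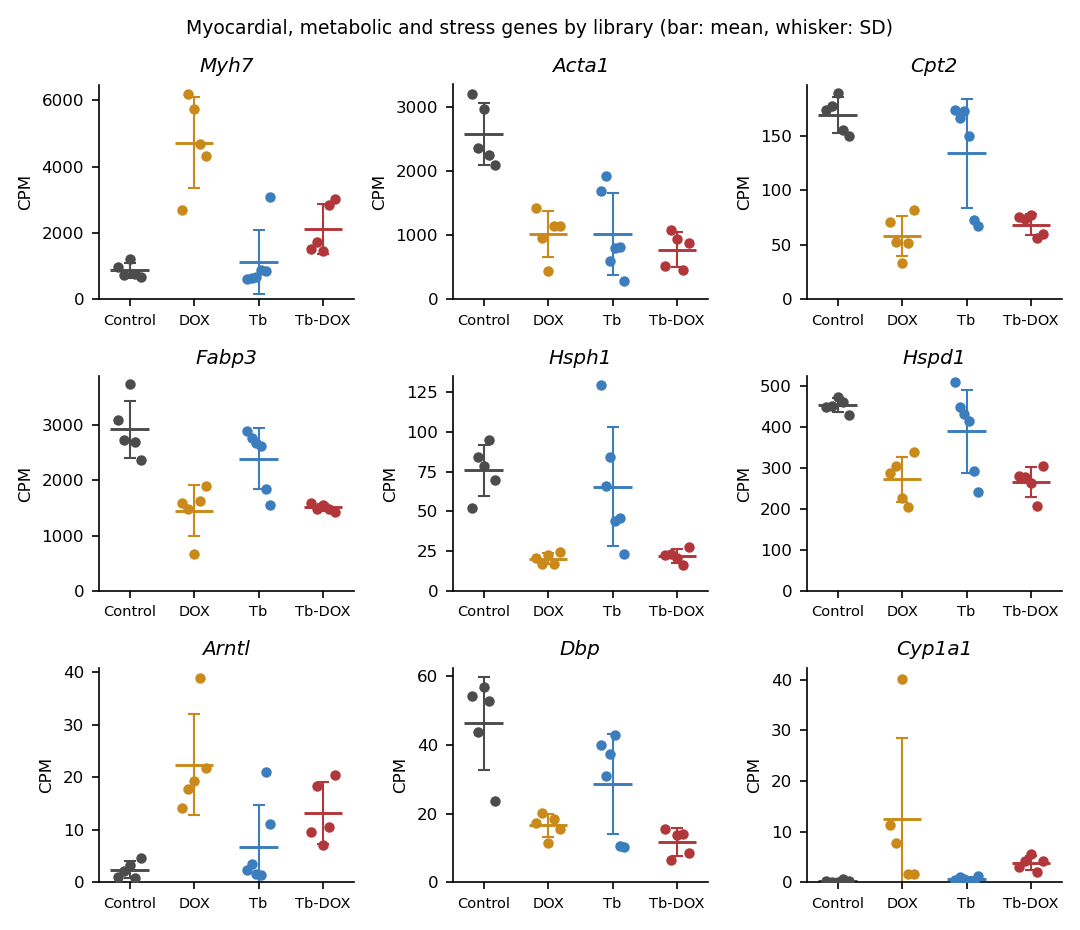
TMM-scaled CPM (linear axis from 0) of 9 myocardial, metabolic, heat shock, clock and xenobiotic genes in each library of Control, DOX, Tb and Tb-DOX, with points for libraries, bars for means and whiskers for SD. Tb-DOX hearts lie below Control hearts in *Acta1*, *Cpt2*, *Fabp3*, *Hsph1*, *Hspd1* and *Dbp* and above them in *Myh7*, *Arntl* and *Cyp1a1*.

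Some genes of the aryl hydrocarbon receptor pathway, a sensor of planar xenobiotics, rose. *Cyp1a1*, its classical target, was at 0.191, 0, 0.113, 0.598 and 0.194 CPM in Control and 3.02, 4.19, 5.66, 2 and 4.31 CPM in Tb-DOX libraries, all of the latter above all of the former (log2 fold change 4.13 ± 0.90 (SE), edgeR adjusted p = 0.00343). At these low levels the value depended on the scale, and on log2(FPKM + 1) limma gave 1.15 with an adjusted p of 0.0724. The receptor gene *Ahr* itself rose by 0.78 on the log2 scale. *Cyp1b1* rose by 1.31 (edgeR adjusted p = 0.0236), with an adjusted p between 0.0544 and 0.0638 when Control-3, Control-4, Control-5, Tb-DOX-2 or Tb-DOX-4 was left out. Of 7 tested genes of the list 4 rose and none fell, against 6.96% and 6.79% of all genes. However, *Cyp1a1* and 1 other of the list passed the low-value limit only through the Tb-DOX libraries, and 2 rose without Control-3, Control-4, Control-5 or Tb-DOX-4. Of 28 antioxidant genes 7 rose, against 6.96% of all genes, and 2 fell, near the 6.79% of all genes, although 1 fell when any of 14 libraries was left out. *Gpx1*, a glutathione peroxidase, rose by 0.89 and the glutathione transferase *Gstm2* by 0.65, while *Cat* (catalase) fell by 0.64. Of 22 p53 targets 2 rose, near the 6.96% of all genes, and none fell, with 1 higher without Control-1, Control-4, Control-5, Tb-DOX-2 or Tb-DOX-4 and 4 higher without Tb-5, and 1 lower without DOX-3 or Tb-5. *Perp*, a p53-induced membrane protein, was at 162, 162, 152, 156 and 158 CPM and 245, 249, 237, 255 and 294 CPM (log2 fold change 0.70 ± 0.09 (SE), edgeR adjusted p = 2.01e-05). *Cdkn1a* (p21), the cell cycle inhibitor, was at 21.2, 27, 43.2, 14 and 17.1 CPM and 56.4, 134, 49.4, 63.4 and 88.9 CPM, where the groups did not overlap but the adjusted p in edgeR was 0.0773.

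The single burdens, set beside the combined one, differed by gene group. These values share the Control libraries with the combined comparison and are given side by side only. *S100a8* had log2 fold changes of 4.16 ± 1.01 in DOX and 11.43 ± 0.96 in Tb hearts against Control, where its Tb-DOX value was 11.26. For *Csf3r* the values were 0.25 ± 0.44, 5.95 ± 0.40 and 5.74. *Hbb-bs* was at -3.40 ± 0.70 in DOX and 0.60 ± 0.61 in Tb hearts, against -4.90 in Tb-DOX hearts, and *Cd74* at -2.82 ± 0.34, 0.00 ± 0.30 and -2.48. *H2-Aa* had -3.67 ± 0.37, 0.13 ± 0.29 and -2.48 in the same order. *Col3a1* had -3.70 ± 0.49 in DOX, -0.53 ± 0.42 in Tb and -2.32 in Tb-DOX hearts, and *Myh7* 2.44 ± 0.39, 0.37 ± 0.36 and 1.28. For both of these genes the Tb-DOX value lay between those of the single burdens. *Acta1* was low in all 3 groups, with -1.33 ± 0.38, -1.34 ± 0.36 and -1.73.

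The direct contrasts of Tb-DOX with each single burden gave the errors of these differences. *Col3a1* was higher in Tb-DOX than in DOX hearts, with a log2 difference of 1.37 (edgeR adjusted p = 0.0429), and lower than in Tb hearts by a log2 difference of -1.80 (edgeR adjusted p = 0.0221). *Sparc* differed by 0.61 (edgeR adjusted p = 0.00557) from DOX and -0.86 (edgeR adjusted p = 0.0017) from Tb hearts. *Myh7* differed by -1.16 (edgeR adjusted p = 0.0364) from DOX hearts and by 0.91 (edgeR adjusted p = 0.145) from Tb hearts. *S100a8* differed from Tb hearts by -0.17 (edgeR adjusted p = 0.888), and *Cd74* from DOX hearts by 0.34 (edgeR adjusted p = 0.511), neither past the threshold, whereas *H2-Aa* was less low than in DOX hearts, by 1.19 (edgeR adjusted p = 0.0367). The Tb libraries ran from 141 to 1467 CPM in *S100a8*, a range that covers the Tb-DOX libraries.

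**Figure D5:**
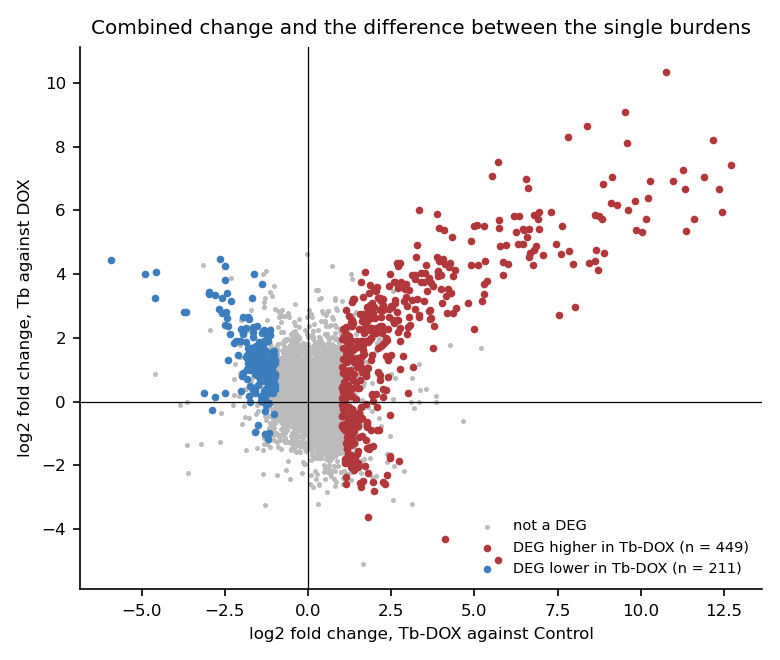
Log2 fold change of Tb-DOX against Control (horizontal) and of Tb against DOX (vertical), for all 14028 genes, with 449 higher DEGs in red, 211 lower DEGs in blue and other genes in grey. Most DEGs of either direction lie above 0 on the vertical axis, 307 of the higher and 153 of the lower ones past the test.

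Tb and DOX hearts share no library with the combined comparison, so the difference between them was read for the DEGs as a separate measurement. Over all genes tested 18.1% were higher in Tb than in DOX hearts and 15.2% lower at an adjusted p under 0.05. Of the 449 higher DEGs 307 (68.4%) were higher in Tb hearts and 68 (15.1%) lower. Of the 211 lower DEGs 153 (72.5%) were higher in Tb hearts and 4 (1.90%) lower. For the higher genes this lean rested on the minimum fold change, since of all 976 genes that rose 385 were higher and 348 lower in Tb than in DOX hearts. Of all 952 genes that fell 509 were higher and 17 lower in Tb hearts. *S100a8* had a Tb against DOX log2 difference of 7.27 (edgeR adjusted p = 4.65e-07), *Cd74* of 2.82 (2.45e-06) and *Col1a1* of 1.60 (7.96e-05). The 68 higher DEGs that were lower in Tb than in DOX hearts included *Myh7* (-2.07), *Cyp1a1* (-4.31), *Thbs2* (-1.83) and *Lox* (-1.41). For *Acta1* the Tb against DOX test gave an edgeR adjusted p of 0.999, with both groups below Control.

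Whether the combined change differed from the sum of the single changes was tested as an interaction on the log2 scale, which 1318 genes (9.40%) passed. Among the 660 DEGs 81 (12.3%) passed, of which 79 had an interaction opposite in sign to the combined change, so that the burdens together moved the gene by less than their sum. The same split by sign was not counted over all 1318 genes, so it cannot be set beside that of the DEGs. *Gamt*, the last enzyme of creatine synthesis, had an interaction of 3.87 (edgeR adjusted p = 0.00726), with -4.48 ± 0.54 in DOX, -0.77 ± 0.37 in Tb and -1.38 in Tb-DOX hearts. Its combined call was lost without Control-3, Control-5, Tb-DOX-2, Tb-DOX-4 or Tb-DOX-5 (adjusted p = 0.0552 to 0.0727). The steroid dehydrogenase *Akr1c14* had an interaction of 2.25 and the endothelial protocadherin *Pcdh12* of 2.09. Collagen and matrix genes were among those that passed, with *Col1a1* at 1.33 and *Sparc* at 0.87. An interaction of the same sign as the combined change was found for 2 genes, *Alas2* (-2.52, edgeR adjusted p = 0.0341) and *Clec12a*, an inhibitory myeloid lectin (2.03, adjusted p = 0.0395). *Clec12a* was lower with DOX (-2.20 ± 0.50) and higher with a tumor (1.87 ± 0.38) and in Tb-DOX hearts (1.70). The number of DEGs with an interaction was 39 without DOX-3 and 147 without Tb-1.

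Few genes set Tb-DOX hearts apart from all 3 other groups. No gene (0%) was a DEG above each of them and 2 (0.0143%) were DEGs below each, *Alas2* and *Hba-a1*. Both are on the erythroid list, where 2 of the 5 tested genes passed the low-value limit only through Control and so had to differ from it. *Alas2* was at 0.877 to 5.05 CPM in DOX, 10.5 to 25.3 CPM in Tb and 0.143 to 2.11 CPM in Tb-DOX hearts, a log2 difference of -1.72 (edgeR adjusted p = 0.0439) from DOX. *Hba-a1* was at 1.28 to 50.1 CPM in DOX and 1.01 to 8.5 CPM in Tb-DOX hearts (edgeR adjusted p = 0.0379). At an unadjusted p under 0.05 in edgeR 4 genes lay above and 6 below each group, and DESeq2 and limma on log2(FPKM + 0.1) each placed 0 above. The number of genes apart was 0 without DOX-2, DOX-4, Tb-DOX-1, Tb-DOX-3 or Tb-DOX-5, 1 without Control-4, Tb-2 or Tb-DOX-2, 4 without Tb-5 and 5 without Tb-6. The 19 male germ cell markers summed to 44.8 to 51.7 CPM in Control, 49.8 to 84 in DOX, 33.8 to 45.3 in Tb and 42.4 to 61.2 CPM in Tb-DOX hearts, with overlap between Control and Tb-DOX hearts. Within that sum, transcripts of sperm chromatin proteins were at low levels. The protamine gene *Prm2* was at 0.638, 0.902, 0.397, 0.374 and 1.03 CPM in Control and 0, 0.728, 0.645, 0.571 and 0.532 CPM in Tb-DOX libraries (51 and 40 counts), and no count was found in any DOX or Tb library. The transition protein genes *Tnp1* and *Tnp2* were at 0.149 to 1.08 and 0.224 to 0.581 CPM in Control, and 0 to 0.717 and 0 to 0.628 CPM in Tb-DOX hearts, and over all DOX and Tb libraries each had a single count. Tb-DOX-1 held no count of these 3 genes, and Control and Tb-DOX libraries overlapped in each. *Gm32699* and *Gm17249*, of unstated function, were at 0.766 to 3.23 and 1.53 to 3.1 CPM in Control and 2.18 to 3.42 and 1.6 to 3.13 CPM in Tb-DOX hearts, with log2 fold changes of 0.53 and 0.17 (edgeR adjusted p = 0.419 and 0.761).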

How the data were processed

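Heart RNA was sequenced in 21 libraries, with polyadenylated RNA selected by oligo(dT) beads and read as pairs. The submitters' processing notes name cutadapt, FastQC, HISAT2, HTSeq 0.6.1, DESeq2 1.34.0 and build GRCm39, without their roles. The authors deposited 1 table with whole-number read counts per gene and library, not normalized, and FPKM values, which equal the deposited count per kilobase of gene length, scaled to the library's total, in 100% of values (tolerance 0.0051). Columns of GO and pathway annotation were not used. Groups were taken from the sample titles.

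The tests used edgeR 4.0.16 (R 4.3.3) on the counts: TMM scaling, quasi-likelihood F tests, all 21 libraries in 1 fit with 1 coefficient per group, and Benjamini-Hochberg adjustment over the 14028 genes that averaged 0.5 FPKM or more across the 10 Control and Tb-DOX libraries. The word "rose" or "fell" marks an adjusted p under 0.05, and SE is the fold change divided by the root of F. CPM are TMM-scaled, libraries are given in the order 1 to 5, and log2 fold changes are Tb-DOX minus Control unless stated. Counting intervals are 95% and exact, and floors of 3 counts cover counting error only. The fit was tested on simulated data with known fold changes. Same-numbered Control and Tb-DOX libraries had residuals correlated at -0.0267 to 0.0588, so numbers did not pair them. No 2 replicates agreed within counting error.

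The members and the 57 gene lists, written from general knowledge, were chosen with earlier results of these data known. Genes were named by this rule: per direction the 10 DEGs with the largest change among those with groups that do not overlap and at least 1 CPM in the higher group, and the 5 most abundant DEGs; of each list the most abundant member and the 4 with the smallest adjusted p, or all of a list with at most 8 tested; genes that the study names for heart RNA, or whose products it measured in serum; and genes apart from all groups or leading in interaction. *Camp*, *Ly6g*, *Col3a1*, *Col6a3*, *Col4a3*, *Col4a4*, *Lox*, *Mmp14*, *Thbs2*, *Postn*, *Hsp90ab1*, *Cat*, *Npas2*, *Per3*, *Tef*, *Il6ra*, *Socs3*, *Osmr*, *Rbm3* and *Cirbp* lie outside the rule and were chosen after their values were seen. The contrast of Tb with DOX and the fit without Control-3 and Tb-DOX-5 together were also added after the data were seen. Promoters are from RefSeq on GRCm38.p6, and gene positions from the table on GRCm39. Alternatives included DESeq2 1.42.0 and limma 3.58.1 on log2(FPKM + 0.1) or log2(FPKM + 1). The exact permutation test planned for named genes is not reported, because many of those genes were chosen for groups that do not overlap.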

Additional observations from a re-analysis of the deposited data

Results flagged for a closer look

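Of 266 groups of values examined for a library far from the others of its group, 37 held one. Genes of 1 library can vary together and some of the values rest on very few reads, so this number is not set against a chance rate. For *Retnlg*, *Camp* and *Stfa2* in Control and *Hba-a2* in Tb-DOX, the other libraries of the group were at 0 CPM. Control-3 held 14 of the 37. It had the highest Control values of *Tnnt2* (16914 CPM), *Hrc* (1869 CPM), *Ckm* (1947 CPM), *Casq1* (107 CPM), *Acads* (164 CPM), *Hsp90ab1* (1513 CPM), *Gstm2* (138 CPM) and *Gsn* (1273 CPM), the highest cardiomyocyte marker sum (73640 CPM) and the lowest *Ttn* value (5208 CPM). In erythroid genes Control-3 was highest in *Hbb-bt* (24.0 CPM), *Hba-a2* (4.94 CPM) and *Alas2* (20.7 CPM), and its share of mitochondrially encoded counts was the lowest at 14.6%. No label separates this library from the rest of its group.

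Other Control libraries that stood apart were Control-4 in *S100a9* (1.94 CPM), *Retnlg* (0.0747 CPM), *Scn4b* (141 CPM) and the skeletal muscle marker sum (22.9 CPM), Control-1 in *Stfa2* (0.0638 CPM), *Lcn2* (27.2 CPM), *H2-Ea* (15.6 CPM), *B2m* (95.5 CPM) and *Fstl1* (138 CPM), Control-2 in *Camp* (0.0694 CPM) and *Thbs2* (36.8 CPM), and Control-5 in the T cell marker sum (9.56 CPM). Among Tb-DOX libraries, Tb-DOX-4 stood apart in *Alas2* (2.11 CPM), *Col4a3* (1.31 CPM), *Fstl1* (74.7 CPM) and mitochondrially encoded counts (18.3%), Tb-DOX-3 in *Hba-a2* (0.143 CPM) and *Casq1* (30.8 CPM), Tb-DOX-1 in *Dpt* (38.9 CPM), *Ucp3* (9.56 CPM), *Prm2* (0 CPM) and *Tnp1* (0 CPM), and Tb-DOX-5 in *Nppb* (501 CPM).

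The interaction test in edgeR was passed by 34 of the 114 named genes compared, against 9.40% of all genes. For these the effect of DOX differed with and without a tumor. Some were named for their interaction and others were chosen after their values were seen, so the number is partly set by that choice. Among neutrophil and cytokine genes the interaction was -4.34 for *S100a8*, -3.90 for *S100a9*, -7.55 for *Retnlg*, -3.58 for *Cxcr2*, -5.76 for *Mmp8*, -3.40 for *Socs3* and -1.51 for *Osmr* on the log2 scale. *Retnlg* and *Mmp8* had 3 or fewer counts over the Control libraries, so their fitted values are no bounds. The levels of *S100a8*, *S100a9* and *Cxcr2* were also very low in Control hearts, so a small rise in DOX hearts weighs heavily on the log2 scale. *S100a8* did not differ past the threshold between Tb-DOX and Tb hearts. Among matrix genes it was 1.33 for *Col1a1*, 1.12 for *Col1a2*, 1.86 for *Col6a3*, 0.87 for *Sparc*, 0.73 for *Sparcl1*, 1.11 for *Lum*, 0.97 for *Fstl1*, -2.92 for *Lox* and -1.74 for *Mmp14*. It was 12.36 for *Prm2*, 10.72 for *Tnp1* and 9.24 for *Tnp2*, which had at most 1 count over the DOX and over the Tb libraries, so that these are no bounds either, and 2.77 for *Gm32699* and 2.04 for *Gm17249*. The remaining values were -2.52 for *Alas2*, 2.03 for *Clec12a*, 3.87 for *Gamt*, 2.25 for *Akr1c14*, 2.09 for *Pcdh12*, 2.24 for *Ssu2*, -0.65 for *Lpl*, -1.63 for *Cyp1b1*, -1.16 for *Ehd4*, -1.22 for *Rbm3*, -1.47 for *Cirbp*, -1.58 for *Peg3* and -1.69 for *Plagl1*.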

How the results depend on the processing

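Of the 114 named genes compared, no gene called in the reported fit or under an alternative changed direction between them. Of those without a call, *Nppb*, *B2m* and *Ssu2* changed sign under 2 alternatives each, *Pln* under 1 and *Tnp1* under 5, and with single libraries left out *Nppb* ran from -0.30 to 0.55, *Tnp1* from -0.26 to 0.47, *Ssu2* from -0.21 to 0.09 and *B2m* from -0.05 to 0.12 on the log2 scale. The 660 DEGs (449 higher, 211 lower) became 170, 107 and 63 among genes averaging 5 FPKM or more, 356, 270 and 86 with limma on log2(FPKM + 1), and 1928, 976 and 952 with no minimum fold change, and the lower ones 139 at an adjusted p under 0.01. The fewer genes tested, the larger pseudocount and the threshold make these differences by construction. Without any low-value limit there were 937 DEGs, and with only the 10 libraries in the fit 775. In that fit 18 cytosolic ribosomal protein genes rose in place of 3, 7 ion channel genes in place of 2, 5 p53 targets in place of 2 (with 3 lower), and 3 nuclear-encoded respiratory chain genes in place of 1 (with 4 lower). With limma on log2(FPKM + 0.1) 3 clock genes fell in place of 7, and 3 ion channel genes in place of 5. Scaling to library totals moved the median of all genes to 0.05 with 480 DEGs higher and 184 lower.

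The 81 DEGs with an interaction (2 of the same sign, 79 opposite) became 29 (0 and 29) at FPKM of at least 5, 143 (6 and 137) with DESeq2, 51 (49 opposite) with limma on log2(FPKM + 0.1), 27 (1 and 26) on log2(FPKM + 1), and 4 (0 and 4) at an adjusted p under 0.01, with 4 of the same sign without a low-value limit. The 2 genes apart from all groups became 0 with library totals, robust moderation, limma on log2(FPKM + 1) or an adjusted p under 0.01, 1 at FPKM of at least 5 or limma on log2(FPKM + 0.1), and 20 with no minimum fold change. For Tb against DOX, the 307 higher and 153 lower DEGs above and the 68 higher and 4 lower DEGs below became 77, 47, 19 and 1 at FPKM of at least 5. With limma on log2(FPKM + 1) the last 3 numbers became 68, 25 and 0, at an adjusted p under 0.01 99, 29 and 0, and with no minimum fold change 509, 348 and 17. The last was 2 with library totals and 1 with limma on log2(FPKM + 0.1). The cause of the shifts in interaction was not tested.

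Leaving out single libraries gave 543 to 737 DEGs (363 to 508 higher, 180 to 229 lower), 39 to 147 with an interaction (0 to 6 and 38 to 142), 0 to 5 genes apart, and 255 to 338, 133 to 172, 56 to 90 and 1 to 4 for Tb against DOX. Without Control-3 and Tb-DOX-5 together there were 640 DEGs, 32 with an interaction (4 and 28) and 1 gene apart. The replicate numbers do not pair the libraries. With the replicate number as a block there were 648 DEGs, 627 of them shared, 37 with an interaction (35 opposite), and 2 lower DEGs below for Tb against DOX. Depth limits the genes without counts in Control, whose folds are lower bounds.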

Other observations

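*Rbm3* and *Cirbp*, which encode RNA-binding proteins induced by cold, were chosen after their values were seen. *Rbm3* was at 48.4, 39.4, 37.6, 44.7 and 46.3 CPM in Control and 148, 130.1, 133, 186 and 136 CPM in Tb-DOX libraries (log2 fold change 1.76 ± 0.27 (SE), edgeR adjusted p = 1.43e-04). Against Control it was 1.89 ± 0.27 in DOX and 1.10 ± 0.26 in Tb hearts. *Cirbp* was at 33.4, 31.5, 35.3, 27.8 and 34.1 CPM and 77.4, 83.8, 84.4, 94.5 and 66.4 CPM (log2 fold change 1.32 ± 0.24 (SE), edgeR adjusted p = 6.23e-04). Neither gene had overlapping groups, and body temperature is not given in the sources used here.

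The nuclear RNA *Neat1*, the scaffold of paraspeckles, was at 1489.9, 1434, 1315, 1061 and 1134 CPM in Control and 4409, 5013, 3365, 4785 and 4197 CPM in Tb-DOX libraries, a log2 fold change of 1.76 ± 0.34 (SE), edgeR adjusted p = 0.00125. The endosomal ATPase gene *Ehd4* was at 351, 329.5, 319.9, 352 and 336 CPM and 695, 812, 706, 679 and 906 CPM (log2 fold change 1.17 ± 0.16 (SE), edgeR adjusted p = 4.69e-05), against 1.84 ± 0.17 in DOX and 0.49 ± 0.16 in Tb hearts on the same scale. The paternally expressed genes *Peg3* and *Plagl1* rose by 1.38 and 1.33 on the log2 scale, and over 9 tested imprinted growth genes 3 rose and 3 fell, against 6.96% and 6.79% of all genes, *Plagl1* and 1 other having passed the low-value limit through 1 group only, where 1 fell without Control-3, Control-5, Tb-4, Tb-DOX-1, Tb-DOX-2, Tb-DOX-3 or Tb-DOX-4 and 5 fell without Tb-5.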
